A study of Mus musculus with 4 samples.

Results

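The genes described here are 36 genes of fibroblasts, adipocyte progenitors and the noncollagen extracellular matrix, chosen by symbol from a table of 51912 genes. All 36 were found, each on 1 identifier, and all 36 had enough reads to be among the 15643 genes tested. They fall into 14 progenitor markers, most of them on the cell surface, 3 cytoskeletal and calcium-binding genes of mesenchymal cells, 18 matrix genes and 1 secreted ligand. Expression was measured by RNA sequencing of subcutaneous white fat from C57BL/6 mice aged 8 weeks. One group was given BML-260, which is known to inhibit DUSP22, a dual-specificity phosphatase also named JSP-1, and the other group was given dimethyl sulfoxide as the vehicle. Each group has 2 libraries, lettered A and B. The design text speaks of 4 mice given BML-260 and 4 given vehicle, and the sources used here do not say how the 8 mice map onto the 4 libraries, so every test below measures only the spread between these libraries. Dose, route, length of treatment and sex were not given either.

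White fat holds, beside its lipid-filled adipocytes, a population of fibroblast-like stromal cells marked by the receptor PDGFRA, part of which can become adipocytes. In mouse subcutaneous fat, cells carrying DPP4 and PI16 lie in the fibrous septa around the lobules and act as early progenitors, cells carrying ICAM1 are committed preadipocytes, and cells carrying CD142, the product of F3, have been described as restraining adipogenesis. The same stromal cells secrete most of the matrix, in which fibrillin microfibrils and elastin form elastic fibres, small proteoglycans bind collagen, lysyl oxidases cross-link the fibres, and matricellular proteins such as thrombospondins and tenascins tune the contact of cells with the matrix. Transforming growth factor beta (TGF-beta) is a well-known inducer of many of these matrix genes.

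Whole tissue was sequenced, so fewer cells of a type and less RNA per cell cannot be told apart. The libraries held between 19999836 and 23726781 expected counts each. Members had between 120 and 75242 counts in every library, apart from Fbn2, whose lowest count was 4. Defining stromal markers were present in every library: Pdgfra had 96.0 and 76.3 CPM (TMM-scaled counts relative to library size) with BML-260 and 88.8 and 88.5 CPM with vehicle. The libraries also differed in other cell types. The summed level of 10 B cell markers came to 452 CPM in BML-260 A, 166 CPM in BML-260 B, and 173 and 144 CPM with vehicle. Most of that sum was Ighm, and the other 9 markers summed to 212 and 9.07 CPM with BML-260 and to 4.89 and 8.04 CPM with vehicle. The 15 T and NK cell markers were also highest in BML-260 A, with 180.4 CPM there and 25.5 CPM in BML-260 B, against 17.8 and 39.6 CPM with vehicle. Skeletal muscle markers (18 genes) summed to 36270 and 54650 CPM with BML-260 and to 452 and 12590 CPM with vehicle. Mature adipocyte markers (12 genes) summed to 32190 and 46440 CPM with BML-260 and to 52380 and 51220 CPM with vehicle. Macrophage and monocyte markers (12 genes) summed to 2853 and 1500.0 CPM with BML-260 and to 1986 and 2305 CPM with vehicle. Schwann cell markers (9 genes) summed to 420.0 and 619 CPM with BML-260 and to 1027 and 817 CPM with vehicle, with 8 of 9 lower in both BML-260 libraries and 7 lower by unadjusted p. Endothelial markers (11 genes) summed to 633 and 832 CPM with BML-260 and to 1075 and 933 CPM with vehicle, with 8 of 11 lower in both BML-260 libraries and 5 lower by unadjusted p. Both lists had 0 genes called by edgeR, and DESeq2 called 3 Schwann cell genes and 1 endothelial gene as lower. Of all genes tested, 21.5% lay lower in both BML-260 libraries, 3.61% were lower by unadjusted p from edgeR and 0.505% were called lower by DESeq2. No gene of these 7 lists was at 0 in all 4 libraries. Of the epithelial list Krt15 was at 0 throughout, and of the mesothelial list Wt1 and Muc16 were, with summed levels of no more than 8.35 CPM in any library for either list.

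The promoters shown are those of S100a4 and Acta2, the members with the largest difference between treatments in each direction. They are the 250 bases before the annotated start, 5′ to 3′ on the gene's own strand, from RefSeq on GRCm38.p6. Capitals mark motif matches. In the S100a4 window, chr3:90603520-90603769 on the plus strand, they mark the TATA box letters TATAAA, whose first base lies 31 bases before the start. In the Acta2 window, chr19:34255374-34255623 on the minus strand, they mark 2 copies of the CArG box, the site known to bind serum response factor, here allowed at most 1 G or C in its core of A and T, with first bases 84 and 34 bases before the start. Those distances refer to the RefSeq start. In GENCODE vM21 Acta2 begins at 34255590 on the minus strand, so most of its window and both copies lie inside the gene as annotated there.
S100a4: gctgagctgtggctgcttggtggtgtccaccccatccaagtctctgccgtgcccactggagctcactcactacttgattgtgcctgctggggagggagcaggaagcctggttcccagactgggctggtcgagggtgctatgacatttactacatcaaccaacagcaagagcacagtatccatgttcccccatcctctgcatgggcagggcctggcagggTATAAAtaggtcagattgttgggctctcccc
Acta2: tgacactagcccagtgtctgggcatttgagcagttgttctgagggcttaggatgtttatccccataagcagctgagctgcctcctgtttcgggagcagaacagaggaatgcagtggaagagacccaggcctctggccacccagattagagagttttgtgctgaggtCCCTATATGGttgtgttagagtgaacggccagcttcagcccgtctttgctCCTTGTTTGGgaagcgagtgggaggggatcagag
Of the 36 members, 23 had a promoter in the RefSeq table, some with more than 1 start, which made 27 windows. A member was counted if any of its windows held the motif, whereas the shares over all windows count each window, so the units differ. On either strand TATAAA was found in 6 of the 23 (Dpp4, Postn, S100a4, Thbs2, Tnc and Vim) and in 12.4% of all 32851 windows of that length. The relaxed CArG box was found in 2 of the 23, Acta2 and Fbln2, and in 8.59% of windows, and the strict form, with no G or C in the core, in 0 of the 23 and in 1.47% of windows. The letters TGANTCA, the binding site of AP-1, were found in F3 and Tnxb and in 6.75% of windows. None of the marked matches overlapped another motif in the printed windows.

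Per length, the matrix genes spanned the widest range of levels. In deposited FPKM (fragment counts scaled to transcript length and library depth), Sparc, a collagen-binding glycoprotein abundant in fat, was the highest member with 1532 and 1429 FPKM in the BML-260 libraries and 1637 and 1717 FPKM in the vehicle libraries. The proteoglycan decorin gene Dcn stood at 505 and 400.1 FPKM with BML-260 and at 597 and 546 FPKM with vehicle. Fbn2, a fibrillin chiefly of the embryo, was the lowest, at 0.096 and 0.021 FPKM with BML-260 and 0.030 and 0.060 FPKM with vehicle. Among progenitor markers Ly6a, the mouse stem cell antigen SCA-1, was the highest, with 541 and 432 FPKM with BML-260 and 570.5 and 588 FPKM with vehicle, and Clec11a, a secreted growth factor, the lowest, with 2.16 and 2.51 FPKM with BML-260 and 2.49 and 2.71 FPKM with vehicle. Of the 36 members, 28 had at least 10 FPKM in every library and 5 had at least 100 FPKM. The order of the most abundant ones depended on the group: by group mean, Sparc was followed by Vim (701 FPKM), Ly6a (487 FPKM) and Dcn (453 FPKM) with BML-260, and by Ly6a (579 FPKM), Dcn (572 FPKM) and Vim (529 FPKM) with vehicle. With BML-260, the library values of Ly6a and Dcn overlapped and those of Vim lay above both. With vehicle, Ly6a and Dcn overlapped and so did Dcn and Vim.

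**Figure D1:**
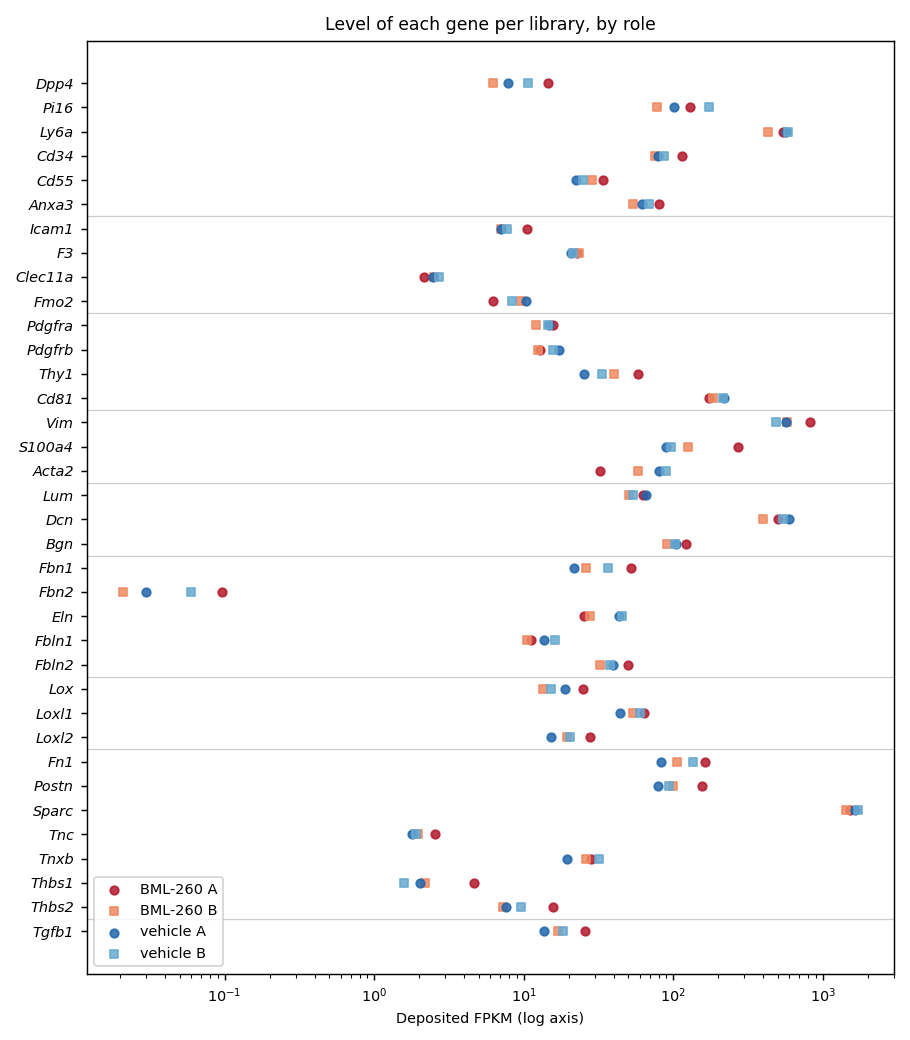
Deposited FPKM of the 36 genes (horizontal, log axis) in each of the 4 libraries, red for BML-260 and blue for vehicle, with lines between gene groups. Sparc lies highest, between 1429 and 1717 FPKM, and Fbn2 lowest, below 0.1 FPKM.

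The comparison of BML-260 with vehicle called none of the members. After Benjamini-Hochberg adjustment over all genes of the edgeR quasi-likelihood p-values, 0 of 36 members passed an adjusted p of 0.05, against 0.00639% of all genes tested, and the smallest adjusted p of a member was 0.287. At an unadjusted p under 0.05, 3 members lay higher with BML-260, a rule that 7.45% of all genes met in that direction, and 4 lay lower, which 3.61% of all genes did. The higher ones were S100a4, Thy1 and Cd55, and the lower ones Eln, Acta2, Fbln1 and Pdgfrb. DESeq2 called 1 member, Eln, as lower, against 0.505% of all genes, and 0 as higher, against 2.1% of all genes, or 2.6% in either direction. In the authors' deposited table the same gene alone had an adjusted p under 0.05, in the lower direction, where 0.441% of the tested genes had one, and 0 members had one in the higher direction, where 1.84% did. limma-voom called 0 members, against 0.00639% of all genes.

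Values of the treatments did not overlap in 8 members that lay higher in both BML-260 libraries, against 22.9% of all genes, and in 8 that lay lower in both, against 21.5% of all genes. Together they are 16 members, or 44.4% of the 36, beside 44.3% of all genes. Over all genes tested the median log2 fold change was 0.02, with 8214 of 15643 above zero. The median over the 36 members was 0.18, with 23 above zero and 13 below. It was 0.03 over the 14 progenitor markers, with 7 above zero, or -0.01 with library totals as the scaling, and 0.22 over the 18 matrix genes, with 13 above zero. Without the library BML-260 A these medians were -0.13, -0.14 and -0.16 for all members, progenitor markers and matrix genes. For 21 of the 36 members the 95% interval of the log2 fold change lay between -1 and 1, so that a 2-fold difference in either direction lay outside it, and for the others it did not.

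**Figure D2:**
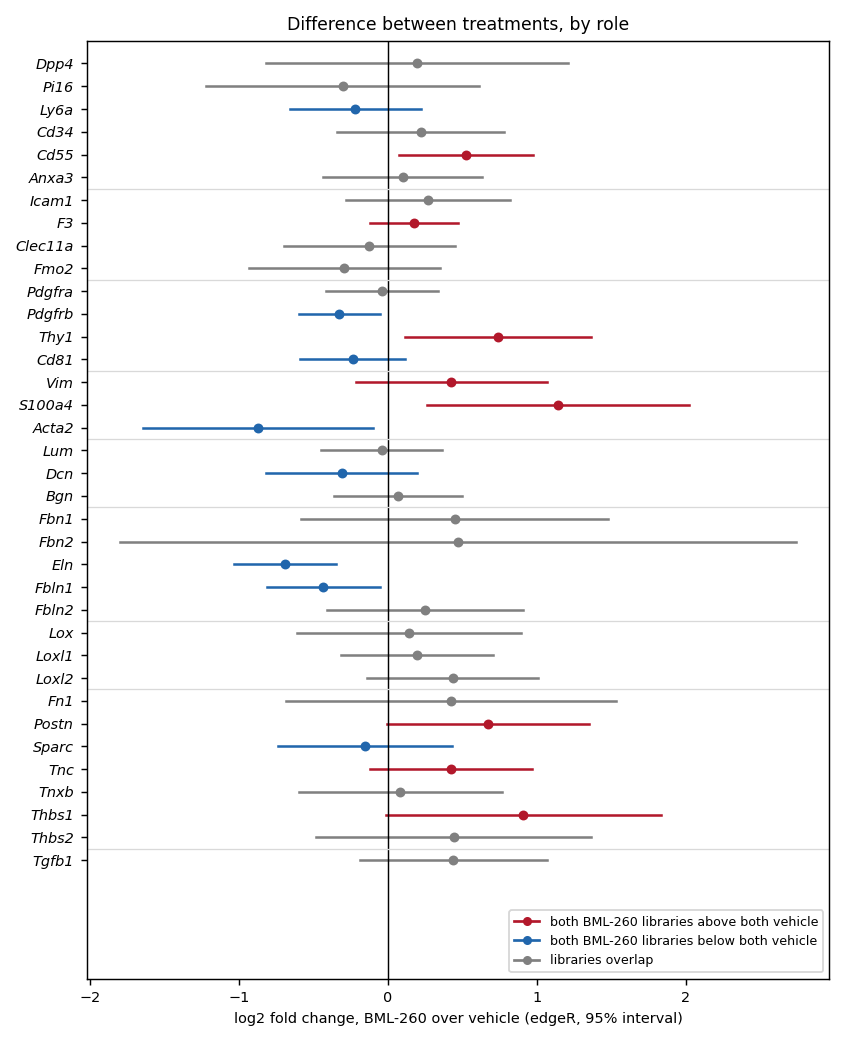
Log2 fold change of each gene, BML-260 over vehicle, with its 95% interval from edgeR's quasi-likelihood fit, grouped by role. Red marks the 8 genes with both BML-260 libraries above both vehicle libraries, blue the 8 with both below, and grey the rest; the intervals of S100a4, Thy1 and Cd55 lie above 0 and those of Eln, Acta2, Fbln1 and Pdgfrb below it.

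Among markers of the early, interstitial progenitors, 4 of 6 overlapped between treatments, Cd55 lay higher with BML-260 and Ly6a lower. Of all genes tested, 22.9% lay higher in both BML-260 libraries and 21.5% lower in both. Dpp4, a surface peptidase, had 70.5 CPM in BML-260 A and 31.1 CPM in BML-260 B, against 37.5 and 51.2 CPM in vehicle A and B. Pi16, a peptidase inhibitor family protein, had 279 and 168 CPM with BML-260 and 200.2 and 352 CPM with vehicle. For both genes the values of the treatments overlapped, and the log2 fold changes were 0.19 (SE 0.40 and adjusted p = 0.884 from edgeR) and -0.30 (SE 0.36 and adjusted p = 0.787 from edgeR). Cd55, which shields cells from complement, had 91.8 and 68.0 CPM with BML-260 and 52.6 and 58.5 CPM with vehicle. Both BML-260 libraries lay above both vehicle libraries, with a log2 fold change of 0.52 (SE 0.18 and adjusted p = 0.418 from edgeR), or 0.28 without BML-260 A. Ly6a was lower in both BML-260 libraries, at 326 and 268 CPM, than in the vehicle libraries, at 329 and 362 CPM, with a log2 fold change of -0.22 (SE 0.17). BML-260 A and vehicle A were nearly level, and the value was -0.38 with BML-260 A left out and -0.09 with BML-260 B left out. Cd34, a sialomucin of progenitors and endothelium, and the annexin gene Anxa3 overlapped between treatments, with log2 fold changes of 0.22 and 0.10. Both had their highest value in BML-260 A, 249 CPM for Cd34 and 116 CPM for Anxa3.

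Markers of committed preadipocytes and of the CD142-positive cells had the smallest range of mean level across libraries among the progenitor groups. Single genes of this group went opposite ways, however. Relative to the gene's own mean over the 4 libraries, the log2 level in BML-260 A was 0.38 for Icam1 and -0.51 for Fmo2. F3, which encodes tissue factor (CD142), had 34.9 and 36.6 CPM with BML-260 and 30.99 and 32.46 CPM with vehicle. The treatments did not overlap, but the log2 fold change was only 0.17 (SE 0.12 and adjusted p = 0.619 from edgeR), with a 95% interval from -0.12 to 0.47, and it was 0.11 without vehicle A. Clec11a had a log2 fold change of -0.13 (SE 0.23), which lay between -0.26 and -0.02 with 1 library left out, and Fmo2, a flavin-containing monooxygenase gene, of -0.29 (SE 0.25). Fmo2 was lowest in BML-260 A, with 19.4 CPM there, 31.7 CPM in BML-260 B, and 33.5 and 29.2 CPM with vehicle. Icam1, an adhesion molecule for leukocytes, had 23.4 and 16.1 CPM with BML-260 and 15.4 and 17.4 CPM with vehicle, a log2 fold change of 0.27 (SE 0.22). Its higher value was again in BML-260 A, the library with the high B, T and NK cell markers. The part of those cells in the value of Icam1 was not tested.

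The general mesenchymal markers split by direction. Pdgfrb, the receptor for platelet-derived growth factor B on mural cells and fibroblasts, had 64.3 and 64.7 CPM with BML-260 and 83.1 and 78.8 CPM with vehicle. The 2 treatments lay well apart relative to the gaps within them, and the log2 fold change was -0.33 (SE 0.11 and adjusted p = 0.403 from edgeR). It kept to between -0.37 and -0.32 whichever library was left out, and the part of the endothelial and mural lists was not tested. Pdgfra, the defining receptor of the stromal progenitors, differed by -0.04 on the log2 scale (SE 0.15, 95% interval -0.42 to 0.33). Cd81, a tetraspanin described on mouse beige fat progenitors, had 212 and 232 CPM with BML-260 and 260 and 263 CPM with vehicle, a log2 fold change of -0.24 (SE 0.14 and adjusted p = 0.577 from edgeR). Thy1, a surface glycoprotein of fibroblasts, had 80.3 and 52.3 CPM with BML-260 and 34.7 and 44.8 CPM with vehicle. Both BML-260 libraries were higher, by a log2 fold change of 0.74 (SE 0.25 and adjusted p = 0.417 from edgeR), or 0.38 without BML-260 A. Mouse T cells also carry THY1, and Thy1 was highest in the library where T and NK cell markers summed to 180.4 CPM, whose part in its value was not tested.

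Cytoskeletal and calcium-binding genes held the largest differences of both directions. S100a4, a calcium-binding protein of fibroblasts and of leukocytes, had 51.9 and 25.4 CPM with BML-260 and 16.2 and 18.8 CPM with vehicle. All vehicle values were lower than both BML-260 values, but BML-260 A lay far above BML-260 B. The log2 fold change was 1.14 (SE 0.35 and adjusted p = 0.385 from edgeR), or 0.52 without BML-260 A. It passed in 1 alternative only, the fit without a filter on low counts (adjusted p = 0.0207 from edgeR), and had an adjusted p of 0.0667 in DESeq2. Vim, the intermediate filament vimentin of mesenchymal cells and leukocytes, had 1193 and 811 CPM with BML-260 and 778 and 715 CPM with vehicle, a log2 fold change of 0.42 (SE 0.25 and adjusted p = 0.580 from edgeR), or 0.11 with BML-260 A left out and 0.67 with BML-260 B left out. The parts of lymphoid cells and of macrophages and monocytes in S100a4 and Vim were not tested.

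Acta2, the smooth muscle actin of vessel walls and myofibroblasts, had 47.5 and 88.9 CPM with BML-260 and 116 and 134 CPM with vehicle. Both BML-260 libraries were lower, with BML-260 A the lowest, and the log2 fold change was -0.87 (SE 0.31 and adjusted p = 0.423 from edgeR), or -0.50 with BML-260 A left out and -1.40 with BML-260 B left out. Its near-identical paralogue Acta1, the skeletal muscle actin, had 5198 and 9202 CPM with BML-260 and 68.9 and 2022 CPM with vehicle, so reads that fit both actins make the value uncertain. Other contractile genes of smooth muscle were mixed. Myh11, Cnn1, Tagln and Myl9 had log2 fold changes between -1.20 and -0.73, Actg2 overlapped between treatments at -0.71 and Lmod1 was at 0.09. The pericyte genes Rgs5, Kcnj8, Notch3, Cspg4, Abcc9 and Higd1b had 0.03, 0.04, -0.09, 0.21, 0.75 and -0.18. These genes make up a list of 12 mural and smooth muscle genes without Acta2, and were grouped this way after their values were seen. Of the 12, 0 passed the edgeR test and the median log2 fold change was -0.14. By unadjusted p 1 lay higher, against 7.45% of all genes, and 3 lower, against 3.61% of all genes. The list summed to 546 and 785 CPM with BML-260 and to 725 and 716 CPM with vehicle, and the parts of this list and of the endothelial list in Acta2 were not tested.

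**Figure D3:**
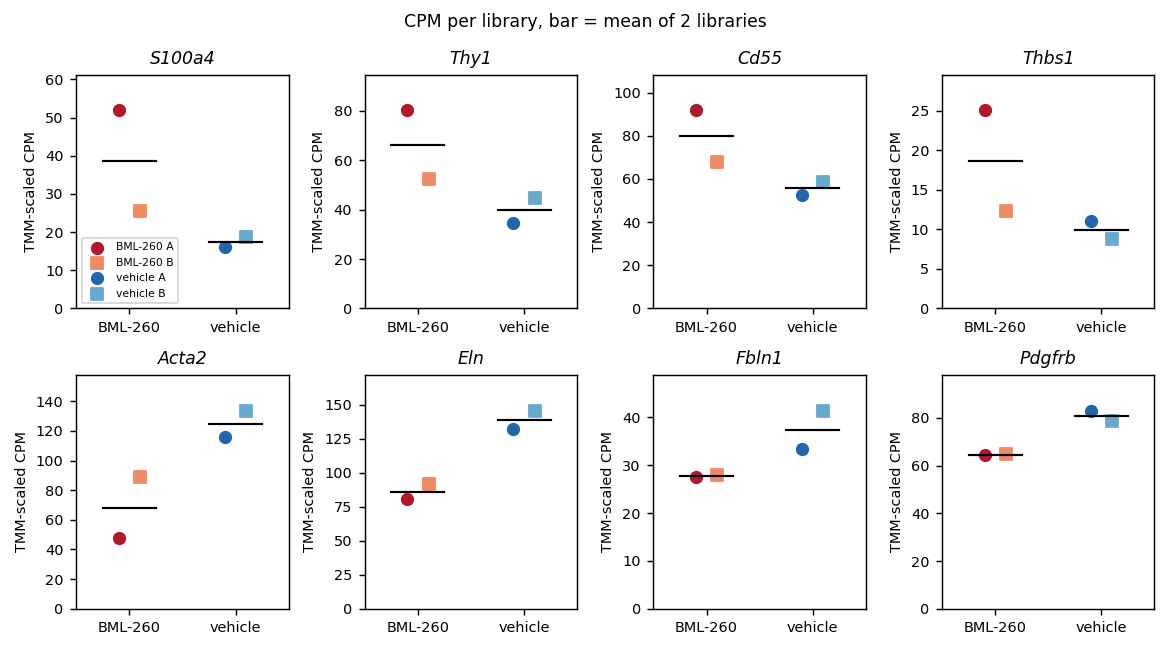
TMM-scaled CPM of 8 genes in each library, from 0 upward, with a bar at the mean of 2 libraries. S100a4, Thy1, Cd55 and Thbs1 have both BML-260 values above both vehicle values, with BML-260 A the highest; Acta2, Eln, Fbln1 and Pdgfrb have both below.

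Among the small leucine-rich proteoglycans, Dcn lay lower in both BML-260 libraries, as did 21.5% of all genes, and Lum and Bgn overlapped between treatments. Dcn, which binds collagen and TGF-beta, had 734 and 598 CPM with BML-260 and 851 and 800.3 CPM with vehicle. Both BML-260 libraries were lower, with a log2 fold change of -0.31 (SE 0.20 and adjusted p = 0.608 from edgeR), or -0.48 with BML-260 A left out and -0.17 with BML-260 B left out. Lum, the collagen fibril regulator lumican, had 135 and 112 CPM with BML-260 and 137 and 117 CPM with vehicle. Bgn, which encodes biglycan, had 252 and 197 CPM with BML-260 and 215 and 213 CPM with vehicle. Both overlapped, with log2 fold changes of -0.04 (95% interval -0.45 to 0.36) and 0.07 (95% interval -0.36 to 0.49).

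Elastic fibre genes pointed in both directions, and elastin had the smallest p of all 36 members. Eln, the elastin gene on chromosome 5 at 134702593 to 134747323 on the minus strand of GRCm38, had 80.7 and 91.5 CPM with BML-260 and 132 and 146 CPM with vehicle. Both BML-260 libraries were well below both vehicle libraries. It lay 1.61-fold lower, with a log2 fold change of -0.69 (SE 0.13, 95% interval -1.03 to -0.35, adjusted p = 0.287 from edgeR), and DESeq2 called it (DESeq2 adjusted p = 0.00251), as did edgeR without a filter on low counts (edgeR adjusted p = 0.0300). In the authors' deposited table its log2 fold change was -0.66 with an adjusted p of 0.00417, and it was not marked as significant there. Leaving out any 1 library kept the log2 fold change between -0.79 and -0.62. Of the mural list given above, 5 of 12 genes lay lower in both BML-260 libraries and 1 higher in both. Of the Schwann cell list 8 of 9 genes lay lower in both, and of the endothelial list 8 of 11, with 0 higher. Over all genes 21.5% lay lower in both, as Eln did, and 22.9% higher. The part of any of the 3 lists in the value of Eln was not tested.

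Fbln1, a fibulin that binds elastic fibres and basement membranes, had 27.5 and 27.9 CPM with BML-260 and 33.3 and 41.5 CPM with vehicle, with no overlap and a log2 fold change of -0.43 (SE 0.15 and adjusted p = 0.419 from edgeR), or -0.27 without vehicle B. Fbn1, the main fibrillin of adult microfibrils, went another way: it had 499 CPM in BML-260 A and 256 CPM in BML-260 B, against 204 and 350 CPM in vehicle A and B. The treatments overlapped, and its log2 fold change was 0.45 (SE 0.41), or -0.13 without BML-260 A. Fbln2 had 142 and 84.6 CPM with BML-260 and 90.3 and 100.4 CPM with vehicle, a log2 fold change of 0.25 (SE 0.26), or -0.19 without BML-260 A. For Fbn2, with 21 and 4 counts in the BML-260 libraries and 6 and 13 counts in the vehicle libraries, the 95% interval ran from -1.80 to 2.74, so no difference could be read at this depth.

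Lysyl oxidases, which cross-link elastin and collagen, overlapped between treatments in all 3 genes. Of all genes tested, 44.3% did not overlap. Lox had 92.6 and 51.2 CPM with BML-260 and 72.2 and 58.4 CPM with vehicle, a log2 fold change of 0.14 (SE 0.30). Loxl1, needed for elastic fibre upkeep in mice, had 191 and 165 CPM with BML-260 and 130 and 181 CPM with vehicle, a log2 fold change of 0.20 (SE 0.20). Loxl2 had 139 and 100.3 CPM with BML-260 and 75.5 and 102 CPM with vehicle, a log2 fold change of 0.43 (SE 0.23 and adjusted p = 0.539 from edgeR). Each was highest in BML-260 A, and without that library Lox lay at -0.36 and Loxl2 at 0.16. Loxl2 overlaps an annotated antisense gene, Gm27177, with 383 and 568 counts with BML-260 and 354 and 429 counts with vehicle, so its value is uncertain without a stated strand setting. Of the 16 members that overlap another annotated gene, it was the only one whose partner reached 100 counts in any library.

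The matricellular and adhesive glycoproteins had 6 of 7 log2 fold changes above zero, beside 8214 of all 15643 genes tested. Of these, Fn1, Thbs2 and Tnxb fell below zero in at least 1 fit that left out a library. Thbs1, a thrombospondin that activates latent TGF-beta, had 25.1 and 12.4 CPM with BML-260 and 11.1 and 8.82 CPM with vehicle. BML-260 B stood only a little above vehicle A, and the log2 fold change was 0.91 (SE 0.36 and adjusted p = 0.455 from edgeR), or 0.30 without BML-260 A. Postn, the fibroblast product periostin, had 403 and 253 CPM with BML-260 and 183 and 228 CPM with vehicle, with no overlap and a log2 fold change of 0.67 (SE 0.27 and adjusted p = 0.453 from edgeR), or 0.28 without BML-260 A. Tnc, a tenascin of remodelling tissue, had 15.8 and 11.8 CPM with BML-260 and 9.54 and 11.02 CPM with vehicle, a log2 fold change of 0.43 (SE 0.21), or 0.19 without BML-260 A.

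Fibronectin, the adhesive glycoprotein encoded by Fn1, had 1010 CPM in BML-260 A and 584 CPM in BML-260 B, against 389 CPM in vehicle A and 800.3 CPM in vehicle B. Its vehicle libraries thus differed 2.06-fold, more than the BML-260 ones, which differed 1.73-fold. The log2 fold change was 0.42 (SE 0.44), or -0.04 without BML-260 A and also -0.04 without vehicle A. Thbs2 had 88.8 and 41.8 CPM with BML-260 and 42.3 and 53.9 CPM with vehicle, a log2 fold change of 0.44 (SE 0.36), or -0.22 without BML-260 A. The treatments overlapped in both genes. Tnxb, the tenascin of loose connective tissue, had 347 and 318 CPM with BML-260 and 236 and 392 CPM with vehicle, a log2 fold change of 0.08 (SE 0.27). Sparc was the only gene of this group below zero, with 2878 and 2755 CPM in the BML-260 libraries, both under the 3017 and 3252 CPM of the vehicle libraries, and a log2 fold change of -0.15 (SE 0.23, 95% interval -0.74 to 0.43), or -0.24 without vehicle A and -0.10 without vehicle B.

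Tgfb1, the ligand, had 47.1 and 32.5 CPM with BML-260 and 24.5 and 34.1 CPM with vehicle. The treatments overlapped, and its log2 fold change was 0.44 (SE 0.25 and adjusted p = 0.563 from edgeR), or 0.13 without BML-260 A and 0.19 without vehicle A. In a list of 26 TGF-beta pathway genes, which includes Thbs1, 0 passed the edgeR test over all genes, and the median log2 fold change was 0.09. By unadjusted p 6 lay higher, against 7.45% of all genes, and 0 lower, against 3.61%. DESeq2 called 2 as higher, against 2.1% of all genes, and 0 as lower, against 0.505%. Both BML-260 libraries lay above both vehicle libraries in 10 genes, against 22.9% of all genes, and below in 4, against 21.5%. Among the list's genes with the smallest p were Smad3 and Itgb6, each with both BML-260 libraries above both vehicle libraries. Smad3, a signal transducer of the TGF-beta receptor, had 65.9 and 65.3 CPM with BML-260 and 30.2 and 42.4 CPM with vehicle, a log2 fold change of 0.85 (SE 0.19 and adjusted p = 0.310 from edgeR). The integrin subunit gene Itgb6 had 3.03 and 4.92 CPM with BML-260 and 0.0949 and 1.12 CPM with vehicle, a log2 fold change of 2.67 (SE 0.90), and its vehicle libraries differed strongly from each other.

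Other matrix and progenitor genes differed in both directions. For comparison, 7.45% of all genes lay higher and 3.61% lower by unadjusted p from edgeR, and DESeq2 called 2.1% as higher and 0.505% as lower. Of 18 further elastic fibre genes, 0 passed the edgeR test over all genes, 1 was lower and 0 higher by unadjusted p, and the median was 0.03. The lower one was Fbln5, a fibulin needed to assemble elastic fibres in mice, with 30.1 and 33.4 CPM with BML-260 and 45.04 and 41.75 CPM with vehicle, a log2 fold change of -0.45 (SE 0.13 and adjusted p = 0.360 from edgeR). Next by p were Adamtsl2 at -0.85 (SE 0.48) and Loxl4 at 0.52 (SE 0.31). Of 36 further proteoglycans and glycoproteins, 0 passed the edgeR test over all genes, by unadjusted p 2 lay higher and 2 lower, and the median was -0.11. Cyr61, a matricellular early response gene, had 20.95 and 16.03 CPM with BML-260 and 9.11 and 8.56 CPM with vehicle, a log2 fold change of 1.07 (SE 0.20 and adjusted p = 0.285 from edgeR), and DESeq2 called 1 gene of this list as higher. Mgp, the matrix Gla protein that keeps mouse arteries free of calcium, was at -0.65 (SE 0.24) and Matn2 at -0.40 (SE 0.14).

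Of 30 further progenitor and fibroblast genes, 29 were tested, 0 passed the edgeR test over all genes, and the median was 0.01. By unadjusted p 3 lay higher, against 7.45% of all genes, and 2 lower, against 3.61%. DESeq2 called 2 as higher, against 2.1% of all genes, and 2 as lower, against 0.505%. Igfbp3, an insulin-like growth factor binding protein, had 18.78 and 16.03 CPM with BML-260 and 30.9 and 31.5 CPM with vehicle, a log2 fold change of -0.84 (SE 0.14 and adjusted p = 0.285 from edgeR). Cd24a, a mucin-like antigen of mouse adipocyte progenitors and of B cells, had 51.3 and 67.6 CPM with BML-260 and 7.69 and 22.2 CPM with vehicle, a log2 fold change of 1.99 (SE 0.49 and adjusted p = 0.338 from edgeR). Cd44, the hyaluronan receptor of stromal cells and leukocytes, had 62.8 and 21.6 CPM with BML-260 and 10.5 and 14.6 CPM with vehicle, a log2 fold change of 1.75 (SE 0.52 and adjusted p = 0.377 from edgeR). The part of leukocytes in Cd24a and Cd44 was not tested.

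The library BML-260 A held the highest value of most members. Of the 36, 28 were higher in BML-260 A than in BML-260 B, as were 46.9% of all genes, and 12 were over 1.5-fold higher there (with 0.5 CPM added), as were 10.3% of all genes. Fmo2 and Acta2 were over 1.5-fold higher in BML-260 B than in BML-260 A, as were 4.9% of all genes. BML-260 A held the highest value of 22 members, against 29.7% of all genes, and BML-260 B of 1, F3, against 24.9% of all genes. Vehicle A held the highest value of 4 members, against 26.4% of all genes, and vehicle B of 9, against 19% of all genes. The lowest value lay in BML-260 A for 7 members (31.3% of all genes), in BML-260 B for 13 (20.3% of all genes), in vehicle A for 14 (25.7% of all genes) and in vehicle B for 2 (22.7% of all genes). The gap between the 2 libraries of at least 1 treatment exceeded the gap between the treatment means in 25 members, a share of 69.4%, beside 69.8% of all genes. Between the vehicle libraries 4 members were over 1.5-fold apart, as were 9.89% of all genes. These were Pi16, Fbn1, Fn1 and Tnxb, each higher in vehicle B.

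**Figure D4:**
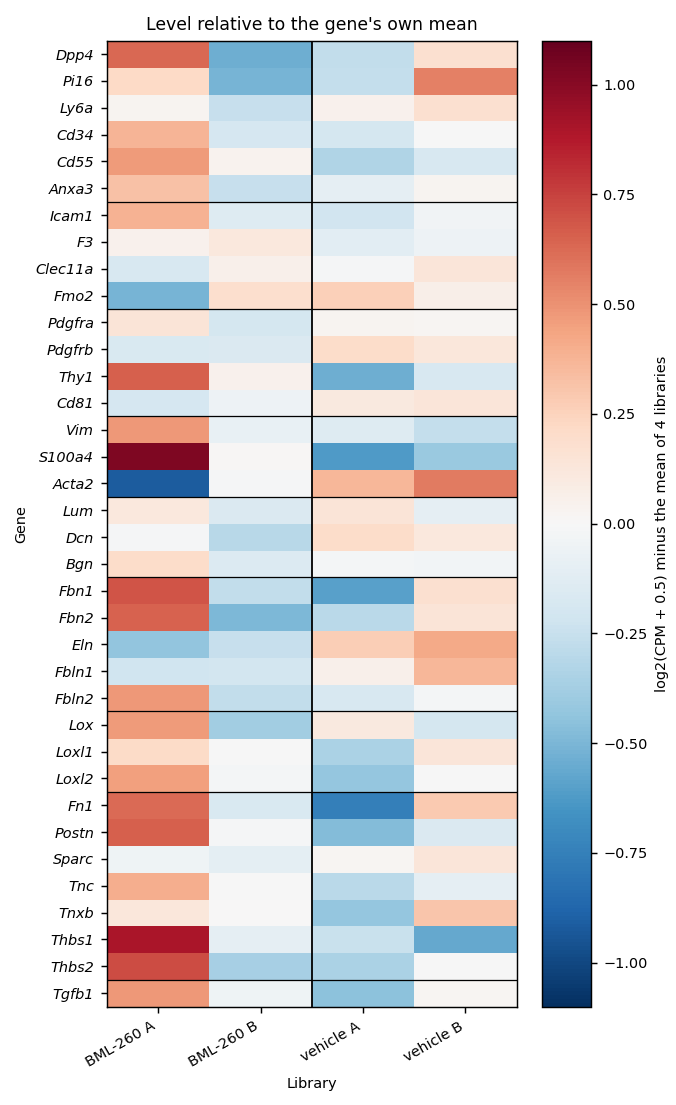
Level of each gene in each library, as log2(CPM + 0.5) minus the mean of the 4 libraries, with red above and blue below that mean and lines between gene groups. Most rows are red in BML-260 A, where 22 of 36 genes have their highest value; Acta2, Eln, Fbln1 and Pdgfrb are blue in both BML-260 columns.

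Progenitor markers and matrix genes both had their highest mean level in BML-260 A and the next in vehicle B. The mean centred log2 level of the 14 progenitor markers was 0.16 in library A and -0.13 in library B of BML-260, against -0.10 in vehicle A and 0.07 in vehicle B. For the 18 matrix genes it was 0.33 and -0.18 with BML-260 and -0.20 and 0.05 with vehicle. The gap between the BML-260 libraries was thus 0.29 for progenitor markers and 0.51 for matrix genes, and the gap between vehicle B and A was 0.17 and 0.25. The difference between treatment means was 0.03 for progenitor markers and 0.15 for matrix genes, under those gaps in both sets. Progenitor markers minus matrix genes came to -0.17 and 0.05 with BML-260 and to 0.10 and 0.02 with vehicle. Within the progenitor markers, the 6 interstitial markers had a gap between BML-260 A and B of 0.62, while the 4 committed and CD142 markers had -0.12. Among matrix families the gap was 0.31 for proteoglycans, 0.53 for elastic fibre genes, 0.51 for lysyl oxidases and 0.59 for matricellular and adhesive glycoproteins. BML-260 A is the library with high B, T and NK cell markers, the highest sum of macrophage markers and low adipocyte markers. Of the 12 macrophage and monocyte genes, C1qa, C1qb, C1qc, Cd163 and Cd14 were highest in vehicle B and the rest in BML-260 A. The part of these cell types in the levels of the members was not tested.

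**Figure D5:**
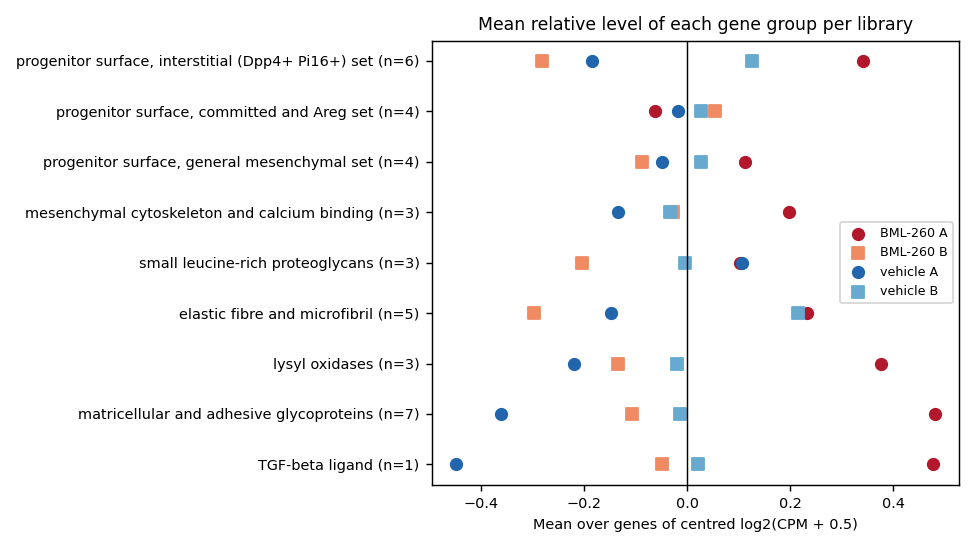
Mean over the genes of a group of log2(CPM + 0.5) centred on each gene's own mean, 1 point per library, for the 9 groups by role. BML-260 A lies highest in 7 of the 9 groups; it is lowest in the committed and CD142 (Areg) markers and level with vehicle A in the proteoglycans.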

How the data were processed

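The authors deposited 1 table with expected counts per gene and library, which are estimated counts that need not be whole, and FPKM values. It also holds the authors' deposited group means, on linear and log2 scales, and the authors' deposited log2 fold changes, p-values and adjusted p-values. The submitters' processing notes list GRCm38.p5, RSEM 1.2.31, HISAT2 2.1.0 and DESeq2 1.10.1, without role or order. The sources used here give no annotation, strand setting or read filter.

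Counts were rounded to whole numbers. Coordinates come from GENCODE vM21 on GRCm38, matched by identifier for 51719 of 51912 genes. The filter filterByExpr (minimum count 10) left 15643 genes. Treatments were compared over all 4 libraries with the two-sided quasi-likelihood test of edgeR 4.0.16 in R 4.3.3, with TMM factors, treatment as the single term and Benjamini-Hochberg adjustment over all genes at 0.05. It had 2 residual and 3.28 prior degrees of freedom, and 95% intervals use both. Each standard error (SE) was taken as log2 fold change over root F. Library values of a gene are TMM-scaled CPM, and log2 levels add 0.5 CPM. Fits were tested on simulated data. Libraries of 1 treatment differed beyond counting noise, and each is 1 sample. The members, the gene lists and the tests were chosen with earlier results of these data known, so no score over a list was tested. All 36 members are named, and of each further list the 3 genes with the smallest p, apart from 1 gene that is not reported here. Alternatives were DESeq2 1.42.0, limma-voom (limma 3.58.1), other scaling factors, filters and priors, the library letter as a term, and leaving out each library.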

Additional observations from a re-analysis of the deposited data

How the results depend on the processing

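Counts of calls depended on the tool and on single libraries. The number of genes called, 1 in the main test, was 407 with DESeq2, 651 without a filter on low counts and 2 with a robust prior, and between 0 (without vehicle A) and 309 (without vehicle B) when a library was left out. Members called were 0 in the main test, 1 with DESeq2 (Eln), 2 without the filter (Eln and S100a4) and 0 in every fit that left out a library. The 2 groups share library letters, and the sources used here do not say whether a letter marks a pair. The correlation of the deviations of libraries with the same letter was -0.04, which cannot decide this with 2 libraries per group. With the letter as a replicate block, 0 genes and 0 members were called. Leaving out a library leaves 1 in its group, which is assumed to vary like the others. The medians then ran from -0.143 to 0.161 for progenitor markers, from -0.160 to 0.536 for matrix genes and from -0.130 to 0.410 for all members, each lowest without BML-260 A. Members higher at an unadjusted p under 0.05 numbered 15 without BML-260 B, 1 without BML-260 A and 0 without vehicle A. Of the members, 19 kept their sign under every alternative and 17 did not, in each case only when a library was left out, and the cause was not tested. Their log2 fold changes ran from -0.527 to 0.663 for Dpp4, -0.730 to 0.158 for Pi16, -0.101 to 0.468 for Cd34, -0.231 to 0.353 for Anxa3, -0.0365 to 0.510 for Icam1, -0.695 to 0.00297 for Fmo2, -0.231 to 0.111 for Pdgfra, -0.199 to 0.0822 for Lum and -0.134 to 0.228 for Bgn. They ran from -0.126 to 0.886 for Fbn1, -1.21 to 1.23 for Fbn2, -0.186 to 0.571 for Fbln2, -0.363 to 0.501 for Lox, -0.0525 to 0.452 for Loxl1, -0.0405 to 1.03 for Fn1, -0.264 to 0.491 for Tnxb and -0.217 to 0.880 for Thbs2. With at least 10 counts in every library Fbn2 was not tested. No scaling moved the median of all genes by more than 0.1 on the log2 scale.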
